A study of Homo sapiens with 4 samples.

Results

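The JNK and p38 kinase modules were followed here through 10 genes of HN12 cells, a line from a human head and neck squamous cell carcinoma (HNSCC). The genes were taken by symbol from a fixed list, MAP3K1, MAP2K3, MAP2K4, MAP2K6, MAP2K7, MAPK8, MAPK9, MAPK11, MAPK13 and MAPK14, and all 10 were found by symbol and Ensembl identifier among the 26726 genes of the deposited tables. RNA sequencing compared ATAD3A knockout cells (KO) with their parental cells (WT), to ask which transcripts change when ATAD3A, a mitochondrial ATPase, is lost. Each group had 2 libraries, which the study's methods describe as separate cultures. The KO was made with CRISPR/Cas9 in clones grown from individual cells, and the clones behind the KO libraries are not stated. KO clones had been transfected and briefly selected with puromycin, and no such step is described for the WT cells. Both groups grew in the same medium. The loss of ATAD3A, a clone's own features and these steps cannot be told apart.

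In these cascades a MAP kinase kinase kinase such as MAP3K1 phosphorylates a MAP kinase kinase, which in turn phosphorylates a JNK or p38 MAP kinase. MAP2K4 and MAP2K7 act on the JNKs, MAP2K3 and MAP2K6 act on the p38 kinases, and MAP2K4 can also act on p38. The pathways are known for responses to stress and cytokines, and in squamous epithelium for their part in proliferation, differentiation and inflammation. Read counts measure transcript level and not phosphorylation.

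The kinases are activated through a short loop, the activation segment, and its coding sequence is shown because its motif separates the JNK from the p38 MAP kinases. For the MAP kinase kinases the modules follow from the kinases they act on, as given above. The stretches below, from GENCODE release 29 transcripts, run 5′ to 3′ from the codons of the conserved Asp-Phe-Gly to those of the conserved Pro-Glu. In the MAP kinases, capitals mark the codons of the phosphorylated Thr, the residue after it and the phosphorylated Tyr, which is Thr-Pro-Tyr in JNK and Thr-Gly-Tyr in p38.
MAPK8: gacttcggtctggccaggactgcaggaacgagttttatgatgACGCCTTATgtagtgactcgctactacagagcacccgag
MAPK9: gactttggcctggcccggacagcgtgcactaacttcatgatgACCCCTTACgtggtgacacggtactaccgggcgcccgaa
MAPK11: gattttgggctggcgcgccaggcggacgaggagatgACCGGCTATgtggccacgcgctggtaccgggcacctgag
MAPK13: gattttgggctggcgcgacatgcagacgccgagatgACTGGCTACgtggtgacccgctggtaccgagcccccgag
MAPK14: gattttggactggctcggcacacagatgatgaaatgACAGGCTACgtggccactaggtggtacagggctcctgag

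The JNK segments were 81 nt long and identical at 61 positions, or 75.3%. The p38 segments were 75 nt long, and identity ran from 74.7% between MAPK13 and MAPK14 to 82.7% between MAPK11 and MAPK13. In the MAP kinase kinases, capitals mark the codons from the phosphorylated Ser to the phosphorylated Thr.
MAP2K4: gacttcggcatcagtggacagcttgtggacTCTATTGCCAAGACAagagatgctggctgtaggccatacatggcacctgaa
MAP2K7: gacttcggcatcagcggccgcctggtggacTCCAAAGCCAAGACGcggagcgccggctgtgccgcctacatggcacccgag
MAP2K3: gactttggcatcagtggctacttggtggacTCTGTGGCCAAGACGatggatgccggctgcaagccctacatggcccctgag
MAP2K6: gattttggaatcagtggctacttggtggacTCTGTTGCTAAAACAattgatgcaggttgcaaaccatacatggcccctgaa

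MAP2K3 and MAP2K6 were the most alike of these segments, at 85.2% of 81 aligned positions. Although the segments are related, none of the 50-nt stretches of the representative transcripts of the 5 MAP kinases occurred in a transcript of another gene, 50 nt being the read length. Among the upstream kinases, 6.83% of the stretches of MAP2K4 were shared with the pseudogene MAP2K4P1, which had 0 to 2 counts per library. MAP2K7 shared 10.3% with AC010336.4, a gene annotated on the opposite strand, and MAP2K3 shared 3.50% with AC243725.1. The shares were 2.17% for MAP3K1, with AC008937.2 on the opposite strand, and 0.562% for MAP2K6. The MAP2K6 transcript searched had 13400 nt, against a gene length of 3076 nt in the deposited values, so this share may differ over the counted part. The stretches of MAP2K6 recurred in RUVBL1 (1403 to 1854 counts per library), FLYWCH1 (1137 to 1460 counts) and EXD1 (0 to 2 counts), and whether such reads were counted for MAP2K6 was not tested. AC008937.2 had 0 to 3 counts per library, and AC010336.4 and AC243725.1 were not matched among the deposited genes. Whether counting used the strand is not given in the sources used here, so reads of the overlapping pairs cannot be told apart.

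The libraries held 13569971 to 18943547 counts, and 15104 genes passed the expression filter. ATAD3A itself had 702 and 492 counts in the KO libraries and 1802 and 1471 in the WT libraries, a log2 fold change of -1.70 (SE 0.091, adjusted p = 1.58e-17). All 7 squamous epithelial markers had counts in every library. Their summed level was 1594 and 1596 RPKM in KO and 543 and 544 RPKM in WT, where RPKM is the read count scaled to gene length and library total. KRT5, KRT14 and KRT6A were higher in KO, whereas CDH1, EPCAM, DSG3 and TP63 were lower. Of 7 markers of other cell types, 5 were matched, and they summed to 2.04 to 2.70 RPKM per library. PTPRC and CD68 had 9 counts or fewer in each library, and COL1A1, PDGFRB and MLANA were not called by edgeR (adjusted p = 0.843, 0.0764 and 0.617). The part of the keratin shift in the results on the kinases was not tested.

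Of the 10 kinases, 6 were lower in KO, 2 were higher and 2 did not pass the test. A gene was called at a Benjamini-Hochberg adjusted p under 0.05 over all tested genes in the quasi-likelihood test of edgeR, and p-values measure the spread between these libraries only. Lower genes were MAP3K1, MAP2K6, MAPK8, MAPK9, MAPK13 and MAPK14, and higher genes were MAP2K3 and MAP2K7. Over all tested genes, 19.1% were called lower and 20.4% higher. Both KO libraries lay below both WT libraries for 7 kinases, against 34.0% of tested genes, and above them for 2 kinases, against 34.1%. The median log2 fold change was -0.26 over the 10 kinases and -0.0042 over all tested genes. MAP2K6 passed the filter through the WT libraries only, and without it the median of the other 9 was -0.25. With an unadjusted p under 0.05 and the fold thresholds of the study's methods, 1.25 and 0.75, 4 kinases were lower (12.2% of tested genes) and 1 was higher (17.0%). Since these are bulk cultures, fewer cells that express a gene and less RNA per cell cannot be told apart.

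**Figure D1:**
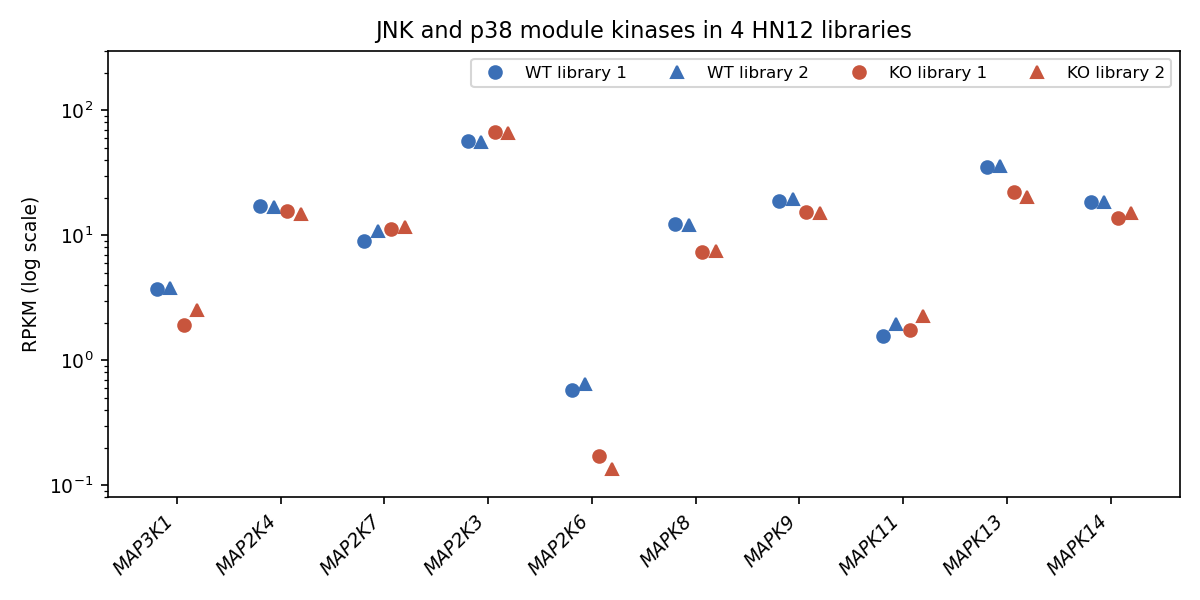
RPKM (log scale) of the 10 kinases in each of the 4 libraries, in the order MAP3K1, MAP kinase kinases, JNK and p38. Blue points are WT and red points KO, with circles for library 1 and triangles for library 2. The KO points of MAP2K6, at 0.172 and 0.135, are the lowest in the plot, and MAP2K3 is the highest in all 4 libraries.

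Levels per length spanned a wide range. In WT cells MAP2K3 led at 56.1 ± 0.841 RPKM (mean ± SD, n = 2, as for the other means), followed by MAPK13 at 35.4 ± 0.518, MAPK9 at 19.1 ± 0.432, MAPK14 at 18.3 ± 0.0126 and MAP2K4 at 17.0 ± 0.205. MAPK8 followed at 12.2 ± 0.123 and MAP2K7 at 9.95 ± 1.22, and MAP3K1 (3.75 ± 0.0924), MAPK11 (1.76 ± 0.260) and MAP2K6 (0.613 ± 0.0483) were lowest. None of these neighbours overlapped in WT. In KO cells MAP2K3 and MAPK13 kept the highest places, while MAPK9, MAP2K4 and MAPK14 lay between 13.9 and 15.6 RPKM and the libraries of MAP2K4 overlapped those of both others. MAP2K7 (11.5 ± 0.426 RPKM) stood above MAPK8 (7.47 ± 0.126 RPKM) in KO, the opposite of their order in WT, and MAP3K1 and MAPK11 overlapped.

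MAP3K1 (ENSG00000095015, chr5:56815574-56896152, plus strand, GRCh38), a large kinase at the top of the JNK cascade that also carries ubiquitin ligase activity, was lower in KO. Its counts were 255 and 299 in KO and 392 and 363 in WT, or 1.92 and 2.54 RPKM against 3.68 and 3.82 RPKM. Both KO libraries lay below both WT libraries, and the KO libraries differed more from each other than the WT libraries did. The log2 fold change was -0.69 (SE 0.136, 95% interval -0.96 to -0.41, adjusted p = 9.71e-05). Offsets for gene length and GC content in each library moved it to -0.42, and the call remained.

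Of the JNK activating kinases, MAP2K7 was called higher and MAP2K4 was not called, and the difference between them was not tested. MAP2K4 (ENSG00000065559, chr17:12020824-12143830, plus strand), which phosphorylates JNK mainly on its Tyr, had 15.6 and 14.7 RPKM in KO and 17.1 and 16.8 RPKM in WT. Although KO was lower with no overlap between the groups, the gene was not called, with a log2 fold change of -0.09 (SE 0.082, 95% interval -0.26 to 0.08, adjusted p = 0.412). With the length and GC offsets the sign turned, to 0.14 (adjusted p = 0.168). MAP2K7 (ENSG00000076984, chr19:7903843-7914478, plus strand), which is specific to JNK and favours its Thr, had 11.2 and 11.8 RPKM in KO and 9.08 and 10.8 RPKM in WT. The groups did not overlap, but the WT libraries lay further apart than the KO libraries. The log2 fold change was 0.28 (SE 0.103, 95% interval 0.07 to 0.48, adjusted p = 0.0312), and 7 of 14 alternatives ended the call. They included scaling by library totals (0.21, adjusted p = 0.114), DESeq2 (adjusted p = 0.159), the length and GC offsets (0.11, adjusted p = 0.427), and the fits without KO replicate 2 (adjusted p = 0.0854) or WT replicate 1 (0.16, adjusted p = 0.418).

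Of the p38 activating kinases, MAP2K3 was called higher in KO and MAP2K6, at low counts, was called lower. MAP2K3 (ENSG00000034152, chr17:21284672-21315240, plus strand) had 67.4 and 66.2 RPKM in KO and 56.7 and 55.5 RPKM in WT, so both KO libraries were above both WT libraries by more than the spread within a group. In the edgeR fit, which scales libraries otherwise than RPKM does, it rose 1.25-fold, a log2 fold change of 0.32 (SE 0.062, 95% interval 0.20 to 0.45, adjusted p = 6.18e-05). With the length and GC offsets the log2 fold change was 0.17 with the call kept. MAP2K6 (ENSG00000108984, chr17:69414698-69553861, plus strand) was read only 10 and 7 times in the KO libraries and 27 times in each WT library. This gave 0.172 and 0.135 RPKM against 0.578 and 0.647 RPKM. Its log2 fold change of -1.90 was the most negative of the 10 kinases and the least precise (SE 0.578, 95% interval -3.08 to -0.73, adjusted p = 0.00797). The call was lost with DESeq2 (adjusted p = 0.0590) and without KO replicate 2, WT replicate 1 or WT replicate 2 (adjusted p = 0.0645, 0.0701 and 0.104). On the log2(RPKM + 1) scale, which shrinks low genes, the change was -0.48.

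This pair of paralogs was taken because their edgeR calls went in opposite directions, although MAP2K6 passed the filter through the WT libraries only. The sequences before the annotated starts of both genes are shown. They come from RefSeq on GRCh38.p14, and the MAP2K3 stretch stops with a motif match that spans the first base of the exon annotated by GENCODE. Capitals mark matches, on either strand, to 6 motifs. AP-1 factors such as JUN bind TGAGTCA, searched with any base in its centre, and the cAMP response element reads TGACGTCA. The GC box of SP1 was searched as GGGCGG. The sequence that places the start of many inducible genes, the TATA box, was searched as TATAAA. Factors of the NF-Y complex recognise the pentamer CCAAT. The letters searched for the ETS family, which includes ELK4, were CCGGAAG.
MAP2K3, chr17:21284461-21284676, plus strand: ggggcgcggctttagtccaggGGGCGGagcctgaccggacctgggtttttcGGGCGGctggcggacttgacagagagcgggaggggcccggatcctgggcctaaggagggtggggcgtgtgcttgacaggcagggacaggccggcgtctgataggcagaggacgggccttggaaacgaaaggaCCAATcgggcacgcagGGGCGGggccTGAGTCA
MAP2K6, chr17:69414447-69414696, plus strand: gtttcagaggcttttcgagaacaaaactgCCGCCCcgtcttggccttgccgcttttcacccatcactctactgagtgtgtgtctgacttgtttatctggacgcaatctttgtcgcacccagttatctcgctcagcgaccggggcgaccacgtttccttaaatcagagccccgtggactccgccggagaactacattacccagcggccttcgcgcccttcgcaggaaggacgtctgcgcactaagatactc

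MAP2K3 held 3 GC boxes, 1 CCAAT box and 1 AP-1 match, and MAP2K6 held 1 GC box. Of the 10 kinases, 9 were matched in the RefSeq table, the entry for MAP3K1 being missing. All 9 held a GC box within 250 nt, against 42.3% of 27305 promoters, and MAP2K3 alone held an AP-1 match, against 6.60% of promoters. No TATA box, ETS motif or full cAMP response element was matched in the 9, and the shares over all promoters were 11.1%, 8.82% and 1.77%. GC content over 250 nt ran from 55.6% for MAP2K6 to 84.4% for MAPK13, with a median of 58.0% over all promoters. A match is a match of letters and does not show that a factor binds there.

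Both JNK genes were lower in KO. MAPK8 (ENSG00000107643, chr10:48306639-48439360, plus strand), which encodes JNK1, had 810 and 736 counts in KO and 1082 and 954 in WT, or 7.38 and 7.56 RPKM against 12.3 and 12.1 RPKM. The groups were far apart relative to the spread within each. In the edgeR fit the level fell by 35.9%, a log2 fold change of -0.64 (SE 0.085, 95% interval -0.81 to -0.47, adjusted p = 1.16e-07). The length and GC offsets moved it to -0.31, still called. MAPK9 (ENSG00000050748, chr5:180233143-180292099, minus strand), which encodes JNK2, had 15.4 and 15.1 RPKM in KO and 18.8 and 19.4 RPKM in WT. The groups did not overlap, with KO lower at a log2 fold change of -0.25 (SE 0.074, 95% interval -0.40 to -0.10, adjusted p = 0.00576). The call ended with the length and GC offsets (-0.043, adjusted p = 0.688) and without WT replicate 2 (adjusted p = 0.0780).

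Of the p38 genes, 2 were lower and 1 was not called. MAPK13 (ENSG00000156711, chr6:36127809-36144524, plus strand), which encodes the epithelial isoform p38δ, had 863 and 693 counts in KO and 1092 and 997 in WT, or 22.2 and 20.1 RPKM against 35.1 and 35.8 RPKM. Both KO libraries lay well below both WT libraries. By the edgeR fit the level fell by 37.3%, a log2 fold change of -0.67 (SE 0.086, 95% interval -0.85 to -0.50, adjusted p = 5.66e-08). MAPK13 was called in all 14 alternatives, where its log2 fold change ran from -0.74 to -0.59. MAPK14 (ENSG00000112062, chr6:36027677-36111236, plus strand), the broadly expressed p38α gene next to MAPK13, had 13.9 and 15.0 RPKM in KO and 18.3 and 18.4 RPKM in WT. The groups did not overlap, and the log2 fold change was -0.28 (SE 0.079, 95% interval -0.44 to -0.12, adjusted p = 0.00476). The call was lost with the length and GC offsets (-0.15, adjusted p = 0.125) and without KO replicate 1 or WT replicate 1 (adjusted p = 0.0597 and 0.0515). MAPK11 (ENSG00000185386, chr22:50263713-50270767, minus strand), which encodes p38β, had 81 and 92 counts in KO and 58 and 64 in WT, or 1.76 and 2.25 RPKM against 1.57 and 1.94 RPKM. The groups overlapped and no difference was detectable at this depth, with a log2 fold change of 0.26 (SE 0.270, 95% interval -0.29 to 0.81, adjusted p = 0.486).

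**Figure D2:**
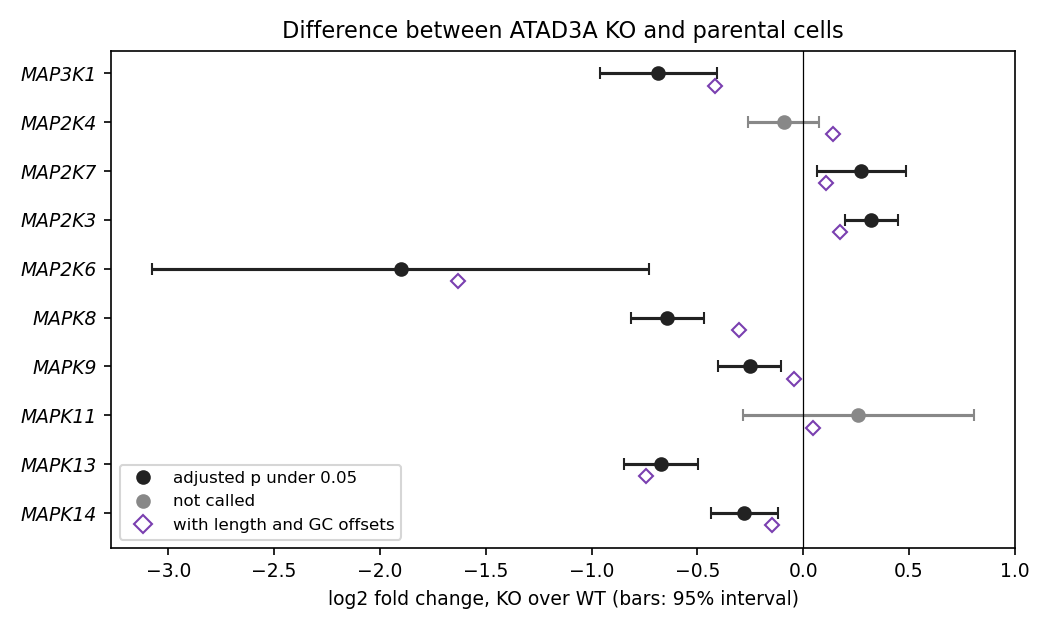
Log2 fold change of each kinase, KO over WT, from the edgeR fit, with 95% intervals as bars. Black points were called and grey points were not, and open diamonds give the value with offsets for gene length and GC content. The diamonds lie nearer to 0 than the points for 8 kinases, further from 0 for MAPK13, and on the other side of 0 for MAP2K4.

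The 10 genes differ in length and GC content, the properties that the offsets model. Of the kinases lower in KO, MAPK8 (5796 nt, 37.5% GC), MAP3K1 (7011 nt, 42.6%), MAPK9 (4815 nt, 43.4%) and MAPK14 (4319 nt, 46.3%) were longer than the median tested gene, 3137.5 nt, and below its GC content, 48.2%. MAP2K6 (3076 nt, 38.5%) was shorter and below it in GC content, and MAPK13 (2052 nt, 52.1%) was shorter and above it. Of the higher kinases, MAP2K3 (2401 nt, 59.3%) was shorter and MAP2K7 (3497 nt, 62.9%) longer, both above it in GC content. MAP2K4 (3856 nt, 41.8%) and MAPK11 (2431 nt, 62.9%), the genes not called, lay on opposite sides of the GC median. Lengths are those of the deposited values, while GC content is that of each gene's longest GENCODE transcript. For MAP2K6 that transcript had 13400 nt, and the GC content of its deposited 3076 nt was not computed.

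The JNK and p38 families each have further genes, and with these the sum and makeup of each tier were computed from RPKM. MAPK10, the mainly neuronal JNK3, had 1.12 and 0.913 RPKM in KO and 0.690 and 1.02 RPKM in WT (log2 fold change 0.33, adjusted p = 0.422). MAPK12, which encodes p38γ, had 4.38 and 4.36 RPKM in KO and 3.64 and 4.06 RPKM in WT (log2 fold change 0.25, adjusted p = 0.0825). Neither was called. The JNK sum was 23.9 and 23.5 RPKM in KO and 31.8 and 32.5 RPKM in WT, and so fell by 26.2%. The share of MAPK8 in it was 31.5% ± 0.896 in KO and 38.01% ± 1.03 in WT, while that of MAPK9 was 64.2% ± 0.334 and 59.3% ± 0.339. No tier sum was computed with the length and GC offsets. Those offsets put the log2 fold change of MAPK8 at -0.31, of MAPK9 at -0.043, of MAPK14 at -0.15 and of MAPK13 at -0.74. The p38 sum was 42.2 and 41.7 RPKM in KO and 58.6 and 60.2 RPKM in WT, and so fell by 29.3%, a log2 ratio of -0.50. Summed as CPM, which uses TMM factors and is not divided by gene length, the p38 log2 ratio was -0.32. With scaling by library totals, as in RPKM, the median log2 fold change over all tested genes was -0.074. MAPK13 made up 50.4% ± 3.15 of it in KO and 59.7% ± 0.219 in WT, and was the largest component in all 4 libraries.

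Among the activating kinases, the sum of MAP2K4 and MAP2K7 was 26.8 and 26.5 RPKM in KO and 26.2 and 27.6 RPKM in WT. These groups overlapped (exact permutation test, two-sided p = 1), while the share of MAP2K4 was 57.0% ± 1.96 in KO and 63.1% ± 3.14 in WT. The sum of MAP2K3 and MAP2K6 was 67.6 and 66.3 RPKM in KO and 57.3 and 56.1 RPKM in WT, a rise of 18.1%. MAP2K3 held 99.8% ± 0.0352 of it in KO and 98.9% ± 0.1004 in WT, so the low counts of MAP2K6 bear little on the sum. For the JNK, p38 and p38 activating sums the exact two-sided p was 0.333, the smallest that 2 against 2 libraries can give.

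**Figure D3:**
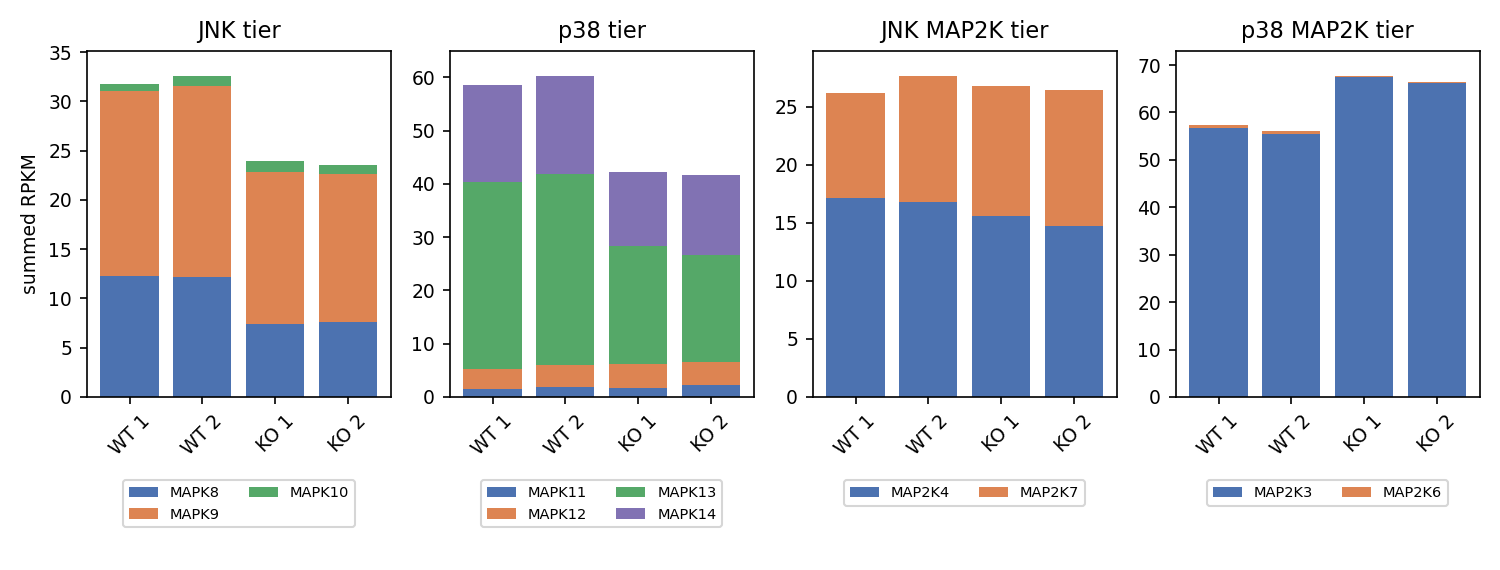
RPKM of each tier in each library, stacked by gene, for the JNKs, the p38 kinases, the JNK activating kinases and the p38 activating kinases. The JNK bars stand at 31.8 and 32.5 RPKM in WT and 23.9 and 23.5 in KO, and the p38 bars at 58.6 and 60.2 in WT and 42.2 and 41.7 in KO. The MAP2K4 and MAP2K7 bars overlap between groups, and the MAP2K3 and MAP2K6 bars are higher in KO.

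Other genes of the pathways were taken from a fixed list of 70, of which 67 passed the filter. Of these, 21 were higher in KO, 11 were lower and 35 were not called, with a median log2 fold change of 0.05. Over all tested genes 20.4% were called higher and 19.1% lower. Scaling by library totals gave 18 higher and 19 lower, and with that scaling higher genes no longer outnumbered lower ones. The number called lower was 5 with DESeq2, 6 with the length and GC offsets and 7 with the fold thresholds, and it also varied when 1 library was left out. Over all genes, the share called in either direction was 39.5% in the main fit and 35.0% with the offsets. It was 15.1% with DESeq2, which had no expression filter, and 12.2% were lower with the fold thresholds. Among the MAP3K and MAP4K genes above MAP2Ks, 8 of 22 were higher and 4 were lower (all tested genes, 20.4% and 19.1%). TNIK (0.68), MAP3K6 (0.65) and MAP3K9 (0.63) had the largest log2 fold changes. The 4 lower genes, named after their values were seen, were TAOK1 (-0.59), MAP3K12 (-0.53), MAP3K2 (-0.27) and MAP3K7 (-0.22). MAP3K1 was at -0.69, and its 95% interval of -0.96 to -0.41 includes the values of TAOK1 and MAP3K12.

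Scaffolds and activators held 5 higher and 2 lower genes of 13 (all tested genes, 20.4% and 19.1%). GADD45A and GADD45B, stress-induced activators of MAP3K4, were higher. GADD45A stood at 62.5 ± 5.76 CPM (counts scaled to the library total with TMM factors) in KO and 34.9 ± 4.28 CPM in WT, a log2 fold change of 0.85 (adjusted p = 6.94e-09), and GADD45B had a log2 fold change of 1.00. MAPK8IP3, the JNK scaffold JIP3, rose with a log2 fold change of 0.72. SH3RF1 (0.41) and TRAF2 (0.31) were the other higher genes, and TAB2 (-0.50) and TAB3 (-0.31), adaptors of MAP3K7, were the lower ones, all 4 named after their values were seen.

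Below the kinases, JUN, the AP-1 subunit that JNK phosphorylates, stood at 53.4 ± 4.60 CPM in KO and 30.9 ± 1.38 CPM in WT, with no overlap. It was higher with a log2 fold change of 0.79 (adjusted p = 3.27e-08). JUNB, its AP-1 relative, was higher too, at 0.96, as was MEF2D, at 0.53, which was named after its value was seen. ELK4, an ETS factor, fell by 0.54 on the log2 scale, and the other 10 of 14 transcription factors were not called. The list thus held 3 higher genes and 1 lower gene of 14 (all tested genes, 20.4% and 19.1%). Of the 7 downstream kinases, 2 were higher and 1 was lower, against the same shares of all tested genes. RPS6KA4 (MSK2) was higher, with 369 and 345 CPM in KO and 189 and 197 CPM in WT (log2 fold change 0.89, adjusted p = 3.05e-15). MAPKAPK3, a direct p38 substrate, was higher at 0.40, and RPS6KA5 (MSK1), the paralog of RPS6KA4, was lower at -0.62.

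The phosphatases listed for the JNK and p38 pathways held 3 higher, 3 lower and 3 uncalled genes of 9 (all tested genes, 20.4% higher and 19.1% lower). DUSP4, a nuclear MAP kinase phosphatase, had 209 and 197 CPM in KO and 63.2 and 70.0 CPM in WT, far apart relative to the spread in either group. Its log2 fold change of 1.61 (adjusted p = 2.22e-20) was the largest of the pathway genes. DUSP1, an immediate early phosphatase, was higher at 0.77, and DUSP16, which prefers JNK and p38, was lower at -0.91 (adjusted p = 4.90e-05), with 7.11 and 8.35 CPM in KO and 14.9 and 14.2 CPM in WT. DUSP10 (0.36) was higher and PPM1A (-0.31) and PPM1B (-0.42) were lower, named after their values were seen.

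**Figure D4:**
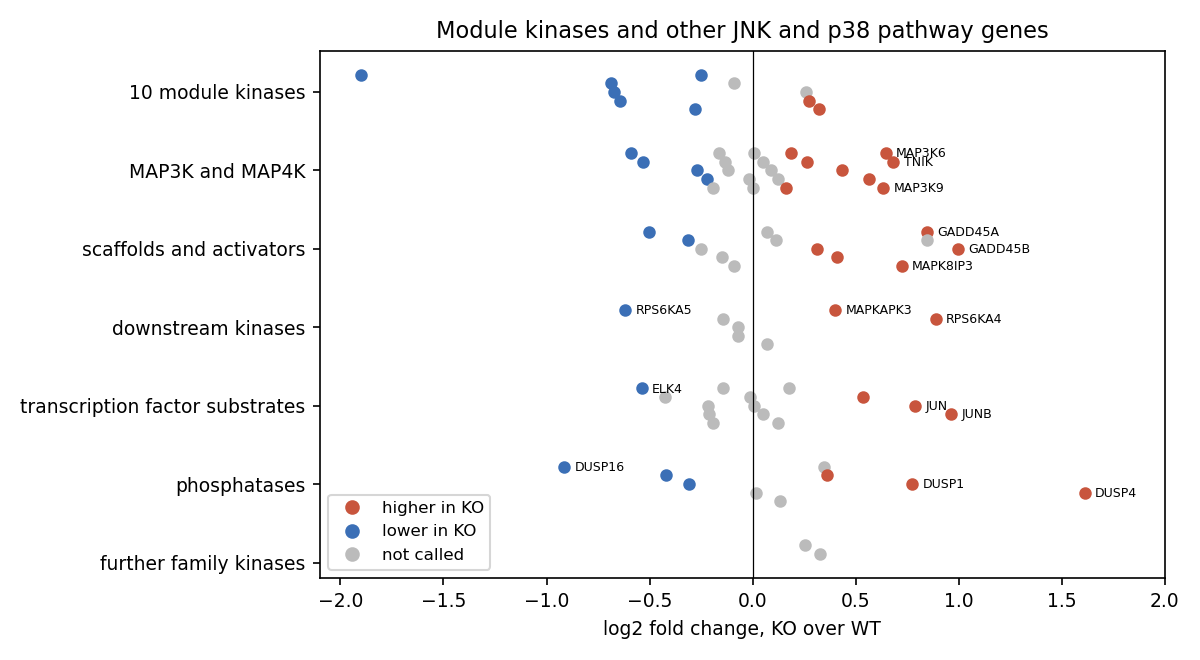
Log2 fold change, KO over WT, of the 10 kinases and of the tested genes of 6 further lists. Red points were called higher, blue points lower and grey points were not called; vertical offsets within a row only separate points, and the labelled genes were taken by the largest change among the called genes of each list. DUSP4 lies furthest right at 1.61 and MAP2K6 furthest left at -1.90.

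Because earlier results of these data had shown regional shifts on some chromosomes, the tested genes within 1 Mb of each kinase were described. Over all tested genes, 19.1% were called lower and 20.4% higher. MAPK13 and MAPK14 are adjacent on chromosome 6, and of the 21 genes around MAPK13, 6 were lower and 2 higher, with a median log2 fold change of -0.21. Around MAPK14 the counts were 7 lower and 2 higher of 22 (median -0.24), over nearly the same genes, and each window includes the other kinase. MAPK14 itself, at -0.28, lay close to this median, while MAPK13, at -0.67, lay below the lower quartile of its neighbours, -0.43. Of the 7 genes near MAP3K1, 3 were lower (median -0.20), and the 8 near MAP2K6 held 4 lower and 1 higher (median -0.56). Within 5 Mb of MAP2K6 the median was -0.079, with 13 lower and 8 higher of 48 genes. The 2 tested genes near MAPK8, ARHGAP22 and FAM35DP, had log2 fold changes of -0.14 and -0.81 (adjusted p = 0.543 and 0.364). Within 5 Mb of MAPK8 the median was -0.28, with 12 lower and 4 higher of 38 genes.

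Around the higher kinases, 9 of the 30 neighbours of MAP2K7 were higher and 2 were lower (median 0.23). Of the 12 near MAP2K3, 5 were higher and 1 was lower (median 0.30). The shares over all tested genes were 20.4% higher and 19.1% lower. MAP2K7 and MAP2K3, at 0.28 and 0.32, lay close to those medians. Within 5 Mb of MAP2K3 the median was 0.18. Of the 24 neighbours of MAPK9, 12 were higher and 3 were lower (median 0.25), while MAPK9 itself was at -0.25. Near MAPK11, 13 of 25 genes were higher (median 0.35), and the 25 include MAPK12, which was not called. Of the 3 near MAP2K4, 1 was higher (median 0.28), while MAP2K4 itself, not called, was at -0.09. These windows were not tested against others, and the part of regional shifts in the kinases' values was not tested.

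**Figure D5:**
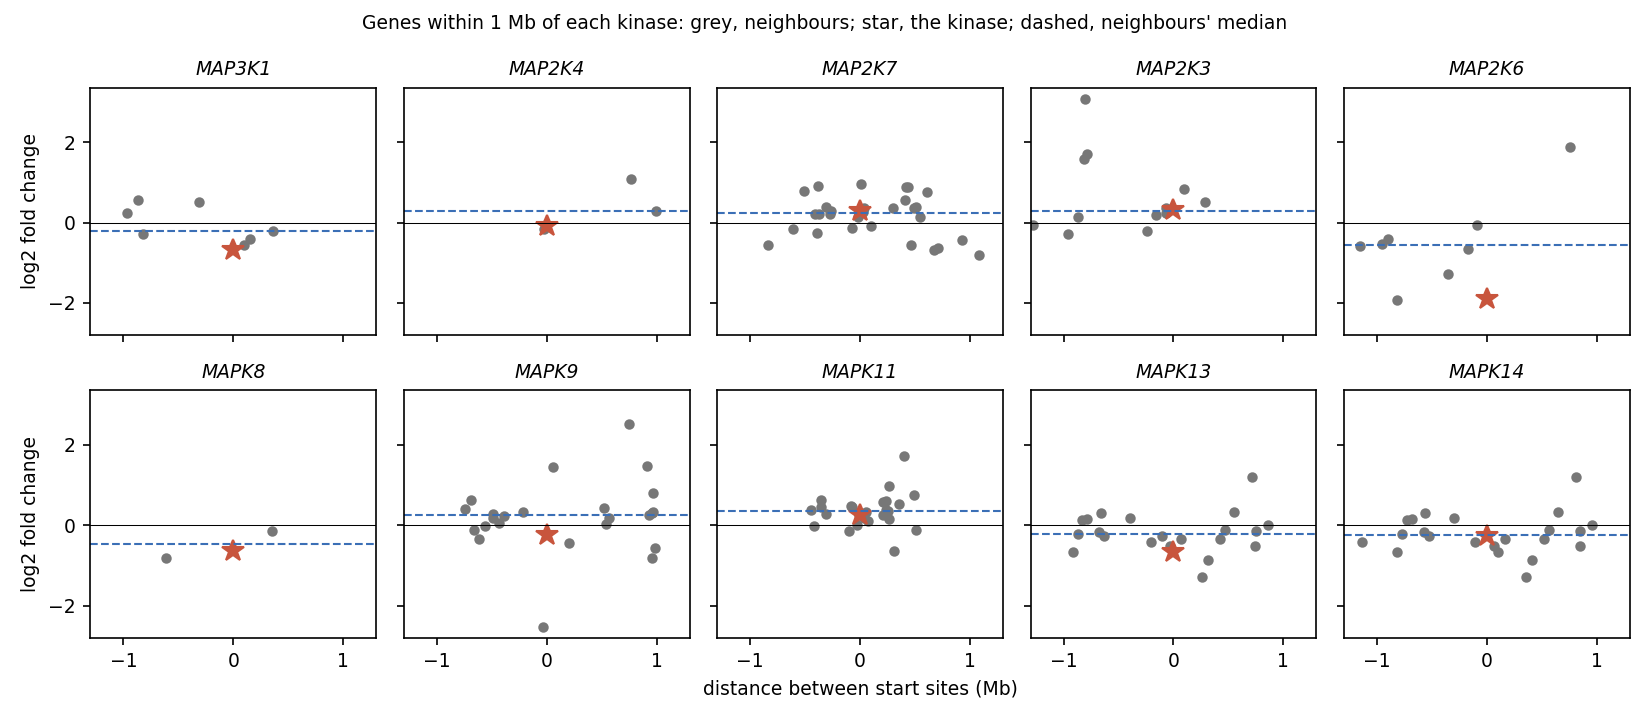
Log2 fold change, KO over WT, of tested genes within 1 Mb of each kinase (grey points) against the distance between start sites in Mb, with the kinase as a red star at 0 and the neighbours' median as a dashed line. A long gene can overlap the window with its start outside it. The star lies near the dashed line for MAPK14, MAP2K7 and MAP2K3, below it for MAPK13, MAP3K1 and MAP2K6, and on the other side of 0 from it for MAPK9 and MAP2K4. MAPK8 lies at -0.64 against a median of -0.47 from 2 genes, and MAPK11 at 0.26 against 0.35.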

How the data were processed

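RNA of ATAD3A KO and parental HN12 cells was sequenced as 50-nt reads. The authors deposited read counts per gene, not normalized, and RPKM values, which equal each count divided by gene length and library total. The submitters' processing notes name CASAVA, STAR 2.5, HTSeq, edgeR 3.16.5, DESeq2 and the build hg19, without roles, and the study's methods name DESeq for its own test. The annotation and the use of strand are not given in the sources used here.

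From the deposited counts, KO was compared with WT by edgeR 4.0.16 in R 4.3.3 (filterByExpr with a minimum count of 10, TMM, glmQLFit and glmQLFTest, Benjamini-Hochberg over 15104 genes). The filter kept genes over 0.625 CPM in at least 2 libraries, TMM factors were 0.975 to 1.03, and the biological coefficient of variation was 5.88%. A floor of 3 counts was 0.158 to 0.221 CPM per library, for counting error only, and depth limits precision most for MAP2K6 and MAPK11. Alternatives used DESeq2 1.42.0, edgeR's exact test, limma 3.58.1 on log2(RPKM + 1) or log2(RPKM + 0.1), other scalings and filters, splines with 4 degrees of freedom for length and GC, a replicate block, and leaving out each library. Scripts were tested on simulated data.

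Gene positions and GC were looked up in GENCODE release 29 (GRCh38) by Ensembl identifier, for 25550 of 26726 genes and 97.2% of tested genes. GC was taken from the longest transcript of each gene, and length from the deposited counts and RPKM. No coordinates of the deposited build were used. Upstream sequences came from RefSeq. The kinases and lists were chosen with earlier results of these data known. Genes named in the text are the 10 kinases, MAPK10, MAPK12, ATAD3A, the marker lists and, from each list, up to 3 called genes with the largest log2 fold change, a mean log2 CPM no lower than 1 and no overlap between groups, besides those stated as named after their values were seen.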

Additional observations from a re-analysis of the deposited data

How the results depend on the processing

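The 6 kinases called lower became 4 to 6 under the alternatives. MAPK8, MAPK13, MAP3K1 and MAP2K3 kept their call in all 14 fits, and MAPK9, MAPK14, MAP2K6 and MAP2K7 did not. Kinases called higher fell from 2 to 1, with MAP2K7 lost, under library totals, DESeq2, both RPKM scales, the length and GC offsets and the fold thresholds of the study's methods. Leaving out each library gave 1 to 2 kinases higher and 4 to 5 lower, 15 to 21 other pathway genes higher and 5 to 12 lower, and -1.88 to -1.53 for ATAD3A (log2 fold change). Each such fit assumes that the lone library varies like the others. Other pathway genes called lower, 11 as reported, were 19 under library totals, 5 under DESeq2, 6 with the offsets and 7 with the fold thresholds. Over all genes, the share called in either direction was 39.5% as reported, 40.5% under library totals and 35.0% with the offsets. Under DESeq2, which had no expression filter, it was 15.1%. MAP2K4 turned from -0.09 to 0.14 with the offsets. The cause of these shifts was not tested.

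With the replicate block, 6 kinases were lower and 2 higher, the same genes. How the replicates were numbered is not stated. Deviations of same-numbered libraries from their group means correlated over genes at -0.022, which cannot show whether those libraries were handled together. MAP2K6 left the test under a minimum of 10 counts in every library. On the CPM scale in place of RPKM, the log2 ratio of the JNK sum was -0.39 (RPKM -0.44), of the p38 sum -0.32 (-0.50), of MAP2K4 plus MAP2K7 0.046 (-0.016) and of MAP2K3 plus MAP2K6 0.31 (0.24), and the share of MAP2K3 rose by 1.09 percentage points (0.852). Leaving out each library, these RPKM ratios were -0.46 to -0.42, -0.52 to -0.48, -0.054 to 0.023 and 0.23 to 0.25. How the length and GC offsets would change the sums was not tested. In windows of 5 Mb, the median log2 fold change near MAPK11 was 0.25, near MAP2K4 0.20, near MAP2K3 0.18 and near MAP2K6 -0.079.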
